A study of Mus musculus with 12 samples.

Results

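The 31 genes described here encode enzymes and regulators of lipogenesis and the pentose phosphate pathway, together with targets of the carbohydrate response element-binding protein ChREBP. They were matched by name, by a rule that uses no measured value, though the set was proposed with earlier results of these data known. Each of the 31 names matched 1 of the 24503 genes in the deposited tables. Mouse islets of Langerhans were sequenced as 12 libraries in 6 groups of 2 mice. From wild-type C57BL/6 mice came a low-glucose group called 2G and 3 groups treated for 4 h at 11 mM glucose: alone (11G), together with diazoxide (11G+D), an opener of ATP-sensitive potassium channels that hyperpolarizes β cells, or together with FK506 (11G+FK), an inhibitor of the phosphatase calcineurin. Islets of C57BL/6 mice carrying the light-gated channel channelrhodopsin-2 (ChR2) in β cells, with no driver named, were kept without light or stimulated with light for 40 min in cycles with 5 min off. The 2G islets are labelled untreated, with no concentration in mM and no time, and no glucose concentration is labelled for the ChR2 islets. A difference between 11G and 2G may thus include the incubation itself, and the ChR2 groups cannot be placed on the glucose scale of the others.

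Lipogenesis builds fatty acids from cytosolic acetyl-CoA, which ATP citrate lyase makes from exported citrate, with NADPH supplied largely by malic enzyme and the oxidative pentose phosphate pathway. The new chains are elongated, desaturated and joined to glycerol. In liver and β cells, ChREBP responds to sugar phosphates and raises genes of this route, classically the L-type pyruvate kinase gene Pklr, while SREBP-1c, encoded by Srebf1, drives an overlapping set in response to insulin.

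The promoters of Pklr and Elovl6 are shown because these genes moved in opposite directions with diazoxide, described below. The upstream sequence of Pklr holds a carbohydrate response element, in capitals, and that of Elovl6 holds none of the 6 motifs searched. Both are the 250 bases before a RefSeq start site on GRCm38.p6, the Pklr window (chr3:89136373-89136622, plus strand) lying before the second of its RefSeq start sites and the Elovl6 window at chr3:129532136-129532385, plus strand.
Pklr: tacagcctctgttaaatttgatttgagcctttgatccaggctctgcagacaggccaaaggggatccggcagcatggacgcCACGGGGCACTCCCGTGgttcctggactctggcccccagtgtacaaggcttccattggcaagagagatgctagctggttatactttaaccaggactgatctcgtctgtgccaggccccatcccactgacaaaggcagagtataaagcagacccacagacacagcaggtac
Elovl6: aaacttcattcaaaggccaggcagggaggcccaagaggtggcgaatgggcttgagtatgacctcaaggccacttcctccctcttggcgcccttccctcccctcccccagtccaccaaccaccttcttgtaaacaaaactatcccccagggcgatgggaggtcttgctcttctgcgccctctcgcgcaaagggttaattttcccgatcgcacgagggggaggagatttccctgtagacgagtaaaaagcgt
The element searched for was the spaced pair of E-box-like units CACGNGNNNNNCNCGTG. It was found in Pklr alone of the 25 members with a RefSeq promoter, from 170 to 154 bases before the start site. That is 1 of 34 member windows (2.94%) against 13 of all 32851 promoters (0.0396%). Pklr is the classical target named above, so its match says nothing about the set as a whole. The single E-box CACGTG, with which the spaced element can overlap, was found in 4 of 34 member windows (11.8%) against 6.02% of all promoters. It is shown in capitals for these 4 genes, in windows of up to 30 bases on GRCm38.p6 that end at the start site at the latest.
Elovl5 (chr9:77917192-77917221, plus strand): actgccccgagaCACGTGaaccacaggaga
Khk (chr5:30921476-30921505, plus strand): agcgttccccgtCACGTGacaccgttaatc
Lpin2 (chr17:71183511-71183531, plus strand): cggagctcgcgtCACGTGgcc
Slc25a1 (chr16:17928441-17928469, minus strand): cgctccagacgCACGTGtctctaaactgc
None of these 4 genes passed the test in any of the 7 comparisons. The sterol regulatory element TCACNCCAC was in 0 member windows and 1.05% of all promoters, and the cyclic AMP response element TGACGTCA in 0 and 1.55%. The general promoter motifs CCAAT and GGGCGG were in 41.2% and 55.9% of member windows against 33.8% and 32.7% of all promoters, all motifs being searched on both strands. A match in these letters is a description of the sequence, not a binding site, and the absence of one says nothing about a factor.

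Levels of the 31 genes are given per length, as FPKM (fragments per kilobase scaled to library size, averaged over the 12 libraries). Acly, ATP citrate lyase, was the most abundant at 319 FPKM, above 99.4% of all genes, followed by the pentose phosphate enzyme transaldolase Taldo1 (109 FPKM) and the mitochondrial citrate carrier Slc25a1 (80.0 FPKM). The 6 pentose phosphate genes lay between 9.91 FPKM (Rpia) and 109 FPKM (Taldo1). Fasn, fatty acid synthase, was at 12.1 FPKM and Acaca, the cytosolic acetyl-CoA carboxylase, at 4.62 FPKM, so that the citrate-splitting step was far more abundant as RNA than the carboxylation and chain-building steps. The ratio of Acly to Fasn was between 14.0 and 47.7 in the 12 libraries. In all, 18 of the 31 genes had a mean of at least 10 FPKM and 3 were under 1 FPKM. Those 3 were Gckr, the glucokinase regulator (0.440 FPKM), Thrsp, the lipogenic nuclear protein Spot 14 (0.396 FPKM), and Acacb, the mitochondrial acetyl-CoA carboxylase (0.123 FPKM), with 2 to 42 reads per library, so changes in them were poorly resolved at this depth.

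Among isoforms, the islets used Scd2 rather than Scd1. Scd2, a stearoyl-CoA desaturase, averaged 17.4 FPKM and its relative Scd1, the form that dominates in liver, 1.17 FPKM, and the ratio of Scd2 to Scd1 was between 6.30 and 32.3 in the 12 libraries. These genes are near-identical copies in parts, with Scd3 at 41 to 100 reads, and no source used here says how shared reads were split, so their levels are uncertain. Among elongases, Elovl5 (36.9 FPKM), which acts on polyunsaturated chains, was more abundant than Elovl6 (5.33 FPKM), which extends palmitate to stearate, and Elovl2 (3.93 FPKM), which acts on long polyunsaturated chains. Dgat1 (17.9 FPKM) exceeded Dgat2 (6.79 FPKM) as a mean over all libraries, both of which add the last acyl chain of triglyceride.

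**Figure D1:**
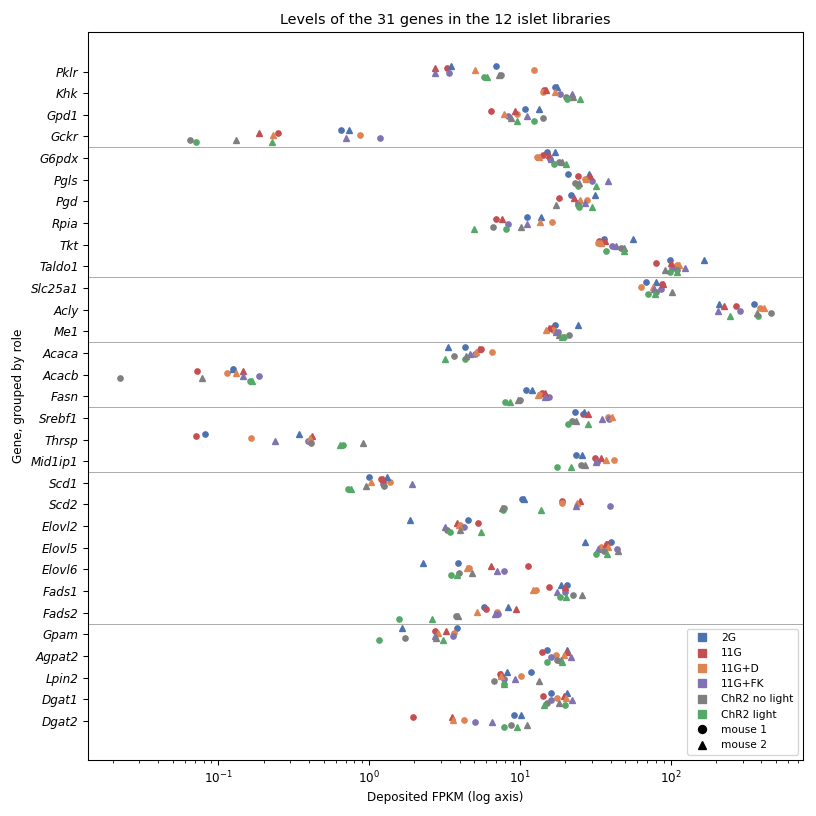
Deposited FPKM (log axis) of the 31 genes in each of the 12 libraries, genes grouped by role from sugar entry at the top to glycerolipid synthesis at the bottom; colours mark the group, circles mouse 1 and triangles mouse 2. Acly, Taldo1 and Slc25a1 lie to the right of all other genes. Acacb reaches furthest to the left, and its points overlap those of Gckr and Thrsp, which in turn overlap Scd1. Scd2, Elovl6, Dgat2 and Pklr are spread by group.

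The libraries held 15196061 to 22892255 counts. Npas4, a gene induced by electrical activity, stood at 0.397 and 0.533 FPKM in mice 1 and 2 at 2G and 21.9 and 18.9 FPKM at 11G. It was at 0.741 and 0.598 FPKM with diazoxide and 7.82 and 13.03 FPKM with FK506, and light raised it from 0.623 and 0.514 to 5.17 and 1.96 FPKM. This gene thus followed the labels of activity. Its levels at 2G and with diazoxide lay close together, and it does not tell the mice apart, so it cannot check every label. Markers of β cells took 7.40% to 11.9% of counts. The 10 adipocyte markers, of which 1 to 6 were at 0 in a library, took 0.00213% to 0.00620%, with 0 to 5 reads of Adipoq and 0 to 1 of Plin1. Fabp4, a fatty acid binding protein that capillary endothelium also makes, held most of the adipocyte sum at 326 to 1248 reads a library, highest under light, and its part in the results was not tested. RNA of whole islets was sequenced, in which fewer cells of a type and less RNA per cell cannot be told apart.

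The first comparison asked what high glucose did to the 31 genes. Elovl6 and Scd2, which modify new fatty acids, rose and Dgat2, which stores them, fell, while the pentose phosphate and acetyl-CoA supply genes gave no call. Of the 30 genes tested (Thrsp had too few reads), 2 rose and 1 fell at an adjusted p under 0.05 by the quasi-likelihood test of edgeR, Benjamini-Hochberg adjusted over all genes, that is 3 of 30 against 4.84% of all 16087 genes tested (3.13% higher and 1.71% lower). Their median log2 change was -0.06 against -0.01 over all genes.
Elovl6 (ENSMUSG00000041220, chromosome 3, 129532386 to 129638495) was at 3.87 and 2.29 FPKM in mice 1 and 2 at 2G and at 11.3 and 6.45 FPKM at 11G. Both 11G libraries lay above both 2G libraries. The change was 2.99-fold (log2 1.58 ± 0.23 SE, n = 2 mice, adjusted p 0.00652 in edgeR), 1.67 in mouse 1 and 1.46 in mouse 2 on the log2 scale. Scd2 (ENSMUSG00000025203, chromosome 19, 44293676 to 44306864), which introduces the double bond into stearate, went from 10.3 and 10.7 FPKM to 18.9 and 24.9 FPKM. The groups did not overlap, and the change was 2.15-fold (log2 1.10 ± 0.25, adjusted p 0.0367 in edgeR). Dgat2 (ENSMUSG00000030747, chromosome 7, 99153663 to 99182713), which makes triglyceride from newly built fatty acids, went from 9.16 and 10.3 FPKM to 1.96 and 3.53 FPKM. It was lower in both mice by more than the mice differed from each other, 3.51-fold (log2 -1.81 ± 0.24, adjusted p 0.00456 in edgeR). Its relative Dgat1 was at 16.1 and 20.4 FPKM at 2G and 14.4 and 19.6 FPKM at 11G (log2 -0.07 ± 0.15).

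Other members gave changes of smaller size that missed the threshold. Rpia, ribose 5-phosphate isomerase of the non-oxidative pentose phosphate branch, was at 11.1 and 13.8 FPKM at 2G and 6.99 and 7.67 FPKM at 11G. Both values at 11G were lower, with a log2 change of -0.71 ± 0.18 and an adjusted p of 0.0513 in edgeR. Gpd1, the cytosolic glycerol 3-phosphate dehydrogenase that makes the glycerol backbone, had 10.9 and 13.4 FPKM against 6.47 and 9.36 FPKM, again without overlap (log2 -0.59 ± 0.19, adjusted p 0.106). Acaca was at 4.35 and 3.33 FPKM at 2G and 5.53 and 5.33 FPKM at 11G (log2 0.56 ± 0.14, adjusted p 0.0533). Mid1ip1, which activates acetyl-CoA carboxylase, was at 23.6 and 25.9 FPKM and then 31.6 and 34.7 FPKM (log2 0.47 ± 0.14, adjusted p 0.0821). By role, 4 of 4 sugar entry genes and 5 of 6 pentose phosphate genes had a negative fold, with medians of -0.63 and -0.34. Gckr, 1 of the sugar entry genes, had few reads. For elongation and desaturation 6 of 7 genes had a positive fold, with a median of 0.23. The median over all genes was -0.01. In mice 1 and 2 the medians were -0.78 and -0.47 for sugar entry and -0.07 and -0.58 for pentose phosphate. They were 0.35 and 0.43 for elongation and desaturation. The pentose phosphate shift thus lay mostly in mouse 2, and no test was made on these counts. At an unadjusted p under 0.05, 6 members were higher and 6 lower, or 12 of 30 against 23.1% of all genes.
Without the mouse block the adjusted p was 0.0437 for Dgat2, 0.114 for Elovl6 and 0.149 for Scd2. Without the 11G library of mouse 1, 0 members passed in edgeR (5 at an unadjusted p under 0.05; Elovl6 1.23, Dgat2 -1.53 and Scd2 1.28 on the log2 scale), and Scd2 also missed the threshold without any other single 2G or 11G library (0.91 to 1.17). Markers of acinar cells fell in 14 of 18 tested genes of 21 in the list, from 0.0724% and 0.131% of counts at 2G to 0.0138% and 0.0617% at 11G in mice 1 and 2, and 2 of 9 ductal markers fell (0.251% and 0.492% against 0.273% and 0.286%); their part in the changes of Dgat2, Scd2 and Elovl6 was not tested.

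**Figure D2:**
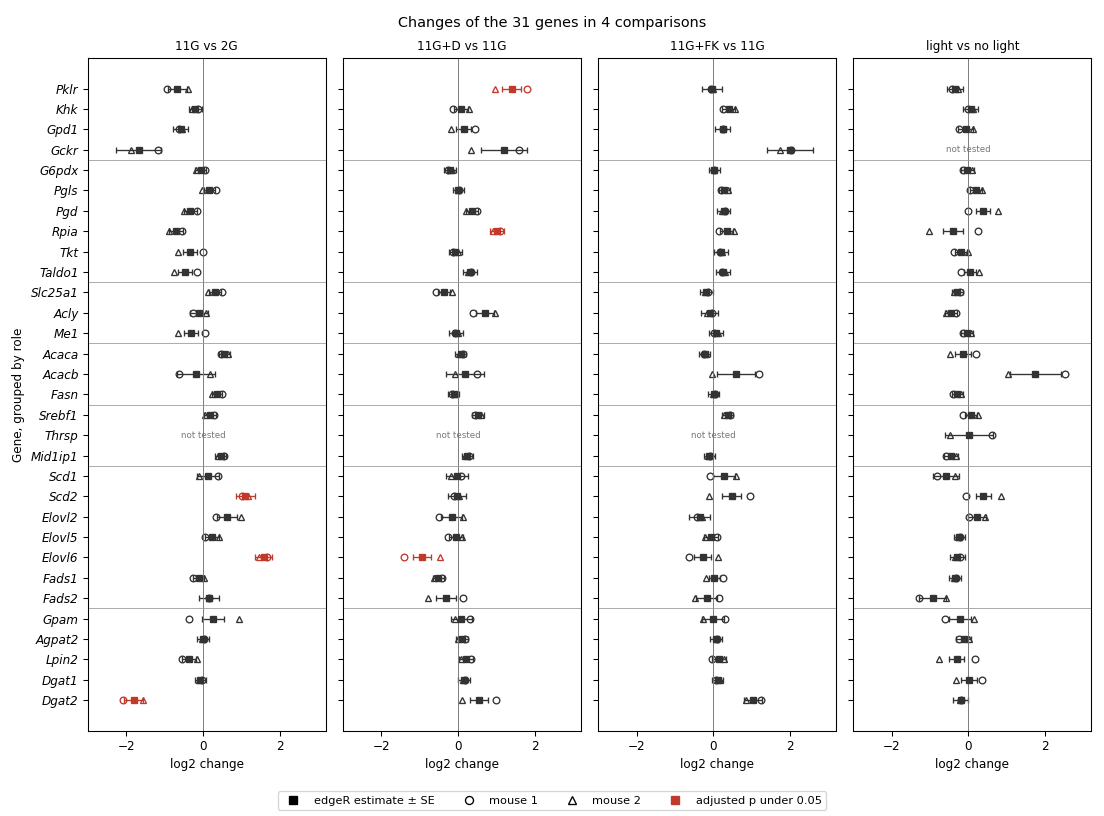
Log2 change of each gene in 4 comparisons (edgeR estimate ± SE as squares with bars, log2 CPM change in mouse 1 as circles and in mouse 2 as triangles; red marks an adjusted p under 0.05). Elovl6, Scd2 and Dgat2 are red at 11G against 2G and Pklr, Rpia and Elovl6 at 11G+D against 11G, and no gene is red with FK506 or light.

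The next comparison asked what changed when the membrane was held hyperpolarized by diazoxide at the same 11 mM glucose. Against 11G, Pklr and Rpia rose and Elovl6 fell, 3 of 30 members tested against 3.79% of all genes. The 2 that rose stand against 1.33% of all genes higher and the 1 that fell against 2.46% lower. The median of the members was 0.08 on the log2 scale.
Pklr (ENSMUSG00000041237, chromosome 3, 89136142 to 89146784), the ChREBP target shown above, was at 3.31 and 2.72 FPKM at 11G and at 12.4 and 5.02 FPKM with diazoxide. Both diazoxide libraries were higher, mouse 1 by more (log2 1.79) than mouse 2 (0.96). The fitted change was 2.64-fold (log2 1.40 ± 0.25, n = 2 mice, adjusted p 0.0164 in edgeR). Pklr shares 711 bases at its 3' end with Hcn3 on the other strand, a channel gene with 6100 counts over all libraries against 3646 for Pklr; Hcn3 was higher by 0.58 ± 0.17 with diazoxide (adjusted p 0.0932), and since no source used here says whether strand was used in counting, part of the Pklr value cannot be told apart from it. Rpia (ENSMUSG00000053604, chromosome 6, 70765720 to 70792232) went from 6.99 and 7.67 FPKM to 16.4 and 13.6 FPKM. Both diazoxide libraries were higher, by 1.11 and 0.90 on the log2 scale, a fitted rise of 2.02-fold (log2 1.01 ± 0.18, adjusted p 0.0156 in edgeR); the 2G libraries stood at 11.1 and 13.8 FPKM. Elovl6 fell by 0.94 on the log2 scale (± 0.23, adjusted p 0.0496 in edgeR), from 11.3 and 6.45 FPKM to 4.61 and 4.43 FPKM, with mouse 1 (-1.41) further than mouse 2 (-0.46).

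The other members of the same routes gave no call with diazoxide. Pgd, 6-phosphogluconate dehydrogenase of the oxidative branch, went from 18.2 and 22.9 FPKM to 27.9 and 25.2 FPKM (log2 0.37 ± 0.17), and G6pdx, its first enzyme, from 14.4 and 15.6 to 12.9 and 13.3 FPKM (-0.21 ± 0.15). Acly, shown because it is the most abundant member and not by its change, was at 274 and 227 FPKM at 11G and 389 and 417 FPKM with diazoxide (log2 0.70 ± 0.23, adjusted p 0.139 in edgeR, 0.39 in mouse 1 and 0.95 in mouse 2). Srebf1 was at 26.3 and 28.4 FPKM and then 38.5 and 40.8 FPKM (log2 0.52 ± 0.15, adjusted p 0.0941). Of the 7 elongation and desaturation genes, 7 had a negative fold (median -0.16), and of the 5 glycerolipid genes 5 had a positive one (median 0.15). These directions did not all hold within each mouse. Scd2, Elovl2 and Elovl5 were positive in mouse 2, Scd1 and Fads2 were positive in mouse 1, and Gpam and Agpat2 were negative in mouse 2. Some fitted values were far below their SE, such as Scd2 (-0.03 ± 0.25), and no test was made on these counts.
Without the mouse block the adjusted p was 0.232 for Pklr, 0.0983 for Rpia and 0.263 for Elovl6. The 3 genes held without the 11G+D library of mouse 2 and missed the threshold without each of the others, with log2 changes for Pklr, Rpia and Elovl6 of 1.15, 1.09 and -0.62 without 11G mouse 1, 1.62, 0.93 and -1.25 without 11G mouse 2, and 1.05, 0.78 and -0.64 without 11G+D mouse 1.

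The 11G+D and 2G libraries were also compared directly, to see which members differed from low glucose while activity was held down. Of the 30 members tested 6 passed, against 5.22% of all genes: 4 rose, against 2.92% of all genes higher, and 2 fell, against 2.31% lower. The 4 that rose were the regulators Srebf1 and Mid1ip1, the carboxylase Acaca and the desaturase Scd2, and the 2 that fell were Dgat2 and Fads1. The comparisons with 2G share the 2G libraries, so their calls are not independent.
Srebf1 (ENSMUSG00000020538, chromosome 11, 60199089 to 60222581) was at 23.3 and 26.5 FPKM at 2G and 38.5 and 40.8 FPKM at 11G+D, an increase of 1.62-fold (log2 0.70 ± 0.15, adjusted p 0.0326 in edgeR). Mid1ip1 (ENSMUSG00000008035, chromosome X, 10715013 to 10719690) was at 23.6 and 25.9 FPKM and at 42.2 and 37.6 FPKM (log2 0.71 ± 0.14, adjusted p 0.0239). Both regulators were thus higher than at 2G in each mouse and did not overlap with it. Acaca (ENSMUSG00000020532, chromosome 11, 84129672 to 84401651) went from 4.35 and 3.33 FPKM to 6.54 and 5.11 FPKM (log2 0.63 ± 0.14, adjusted p 0.0369 in edgeR). Scd2 went from 10.3 and 10.7 FPKM to 19.1 and 24.1 FPKM (log2 1.07 ± 0.25, adjusted p 0.0405), close to its values of 18.9 and 24.9 FPKM at 11G. Scd2 and Dgat2 were therefore called against 2G at 11 mM glucose both without and with diazoxide. Dgat2 was at 9.16 and 10.3 FPKM and at 4.25 and 3.58 FPKM (log2 -1.27 ± 0.24, adjusted p 0.0202 in edgeR). Fads1 (ENSMUSG00000010663, chromosome 19, 10182888 to 10196870), the delta-5 desaturase of polyunsaturated fatty acids, fell from 20.6 and 18.8 FPKM to 12.7 and 12.2 FPKM (log2 -0.63 ± 0.15, adjusted p 0.0428). Its neighbour in the pathway, Fads2, gave -0.16 ± 0.27. Pklr was at 6.94 and 3.48 FPKM at 2G against 12.4 and 5.02 FPKM, higher within each mouse, with overlapping groups (log2 0.73 ± 0.24, adjusted p 0.111).
Without the block none of the 6 passed (edgeR adjusted p 0.112 to 0.21; 6 members at an unadjusted p under 0.05 and 0 after adjustment). Over fits that leave out 1 library, Fads1 (-0.68 to -0.58) held in none of 4, Mid1ip1 was lost without 2G mouse 1 (0.60) and Dgat2 without either the 2G (-1.31) or the 11G+D library (-1.003) of mouse 2. Scd2 was lost without the 2G library of either mouse (1.01 and 1.14) and without 11G+D mouse 2 (0.78), Srebf1 without the same 3 libraries (0.58, 0.82 and 0.62), and Acaca without 2G mouse 2 (0.56) and without the 11G+D library of either mouse (0.60 and 0.66). Acinar markers were lower in 7 of 18 genes tested, at 0.0278% and 0.0483% of counts with diazoxide, and their part in these changes was not tested.

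**Figure D3:**
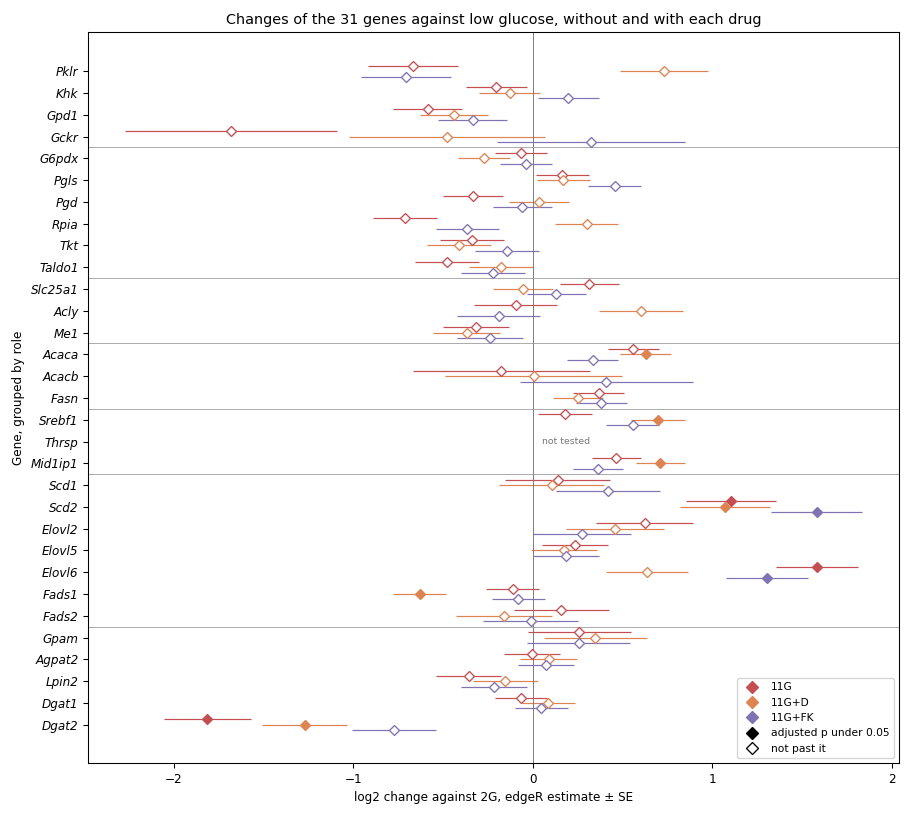
Log2 change of each gene against 2G (edgeR estimate ± SE) for 11G in red, 11G+D in orange and 11G+FK in violet; filled diamonds mark an adjusted p under 0.05. Scd2 is filled under all 3 conditions, Elovl6 at 11G and 11G+FK, Dgat2 at 11G and 11G+D, and Pklr lies on the positive side with diazoxide and on the negative side in the other 2.

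With FK506 at 11 mM glucose, 0 of the 30 members tested passed in edgeR, against 0.23% of all genes, and 4 had an unadjusted p under 0.05, against 10.8% of all genes; DESeq2 called 1, Dgat2. The test called 37 genes in all, so few calls were made anywhere in this comparison, and a missed threshold does not show that the members were unaffected. Dgat2 was at 1.96 and 3.53 FPKM at 11G and at 5.04 and 6.51 FPKM with FK506, higher in both mice without overlap (log2 1.04 ± 0.24, adjusted p 0.164 in edgeR and 0.0281 in DESeq2), between the values at 11G and at 2G. Elovl6 was at 11.3 and 6.45 FPKM and at 7.85 and 7.07 FPKM, within the spread of the 11G libraries (log2 -0.28 ± 0.22). Pklr was at 3.31 and 2.72 FPKM without and 3.41 and 2.74 FPKM with FK506 (log2 -0.04 ± 0.26). Gckr had the largest estimate (log2 2.00 ± 0.59, adjusted p 0.273), from 0.249 and 0.187 FPKM to 1.17 and 0.698 FPKM, on few reads.

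Against 2G, the FK506 libraries gave 2 of 30 members, Scd2 and Elovl6, against 2.06% of all genes, and both rose, against 1.47% higher. Scd2 was at 39.8 FPKM in mouse 1 and 23.5 FPKM in mouse 2 with FK506, against 10.3 and 10.7 FPKM (2.99-fold, log2 1.58 ± 0.25, adjusted p 0.0202 in edgeR). Mouse 1 of the FK506 group held the highest Scd2 level of all 12 libraries. Elovl6 was 2.47-fold higher than at 2G (log2 1.31 ± 0.23, adjusted p 0.0258). Dgat2 did not pass (log2 -0.77 ± 0.23, adjusted p 0.109). Acinar markers were lower in 13 of 18 genes tested, at 0.0163% and 0.0571% of counts with FK506 in mice 1 and 2, and 1 of 9 ductal markers fell. The part of these markers in the changes was not tested. Without the mouse block the adjusted p was 0.120 for Scd2 and 0.229 for Elovl6, and without single libraries Scd2 held once, without 11G+FK mouse 2 (2.05), and was at 0.997 without 11G+FK mouse 1, 1.50 without 2G mouse 1 and 1.64 without 2G mouse 2, while Elovl6 held in none of 4 (1.12 to 1.48).

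The drugs were compared with each other to test where their effects on the members differed. Pklr differed, 1 of 30 members against 1.17% of all genes (0.385% lower), and was lower with FK506 than with diazoxide: 3.41 and 2.74 FPKM against 12.4 and 5.02 FPKM. Both FK506 libraries lay below both diazoxide libraries (2.71-fold, log2 -1.44 ± 0.25, adjusted p 0.0305 in edgeR). The overlapping Hcn3 was lower by 0.57 ± 0.17 (adjusted p 0.146). Rpia (8.41 and 11.2 FPKM against 16.4 and 13.6 FPKM; log2 -0.67 ± 0.18, adjusted p 0.113) and Elovl6 (7.85 and 7.07 FPKM against 4.61 and 4.43 FPKM; log2 0.67 ± 0.23, adjusted p 0.189) did not overlap between the drugs but missed the threshold. Pklr thus passed the threshold while Rpia and Elovl6 missed it, which does not show that the drugs differed for Pklr alone. Without the block the adjusted p for Pklr was 0.360, and it missed the threshold without 11G+D mouse 1 (-1.09) and without the 11G+FK library of either mouse (-1.17 and -1.69).

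The last comparison asked whether light stimulation of ChR2 β cells for 40 min moved the same genes. It gave 0 of 30 members in edgeR (Gckr had too few reads), against 0.844% of all genes, with 5 members at an unadjusted p under 0.05 (11.2% of all genes) and 0 in DESeq2 (2 at an unadjusted p under 0.05). The median change was -0.17 on the log2 scale against 0.01 over all genes, and 12 members were lower in both mice against 3 higher in both, where 27.9% of all genes were lower and 29.1% higher in both. Elovl6 was at 3.94 and 4.83 FPKM without and 3.48 and 3.82 FPKM under light (log2 -0.29 ± 0.20), and Pklr at 7.55 and 7.24 against 5.77 and 6.07 FPKM (log2 -0.35 ± 0.21). Neither change passed. Dgat2 was at 8.68 and 11.1 FPKM and at 7.88 and 9.57 FPKM (log2 -0.21 ± 0.21). Fads2, the delta-6 desaturase, had the lowest estimate, from 3.80 and 3.88 FPKM to 1.58 and 2.61 FPKM without overlap (log2 -0.93 ± 0.35, adjusted p 0.296). Acly went from 460 and 372 FPKM to 379 and 249 FPKM (log2 -0.46 ± 0.16, adjusted p 0.270). Acacb had the highest estimate (log2 1.75 ± 0.67, adjusted p 0.304), on 3 to 30 reads over all libraries. Acinar markers went from 0.0629% and 0.0449% of counts to 0.0519% and 0.0120% in mice 1 and 2, with 1 of 18 past the threshold, and 2 of 8 endothelial markers were higher; their part in the shift of the members was not tested.

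**Figure D4:**
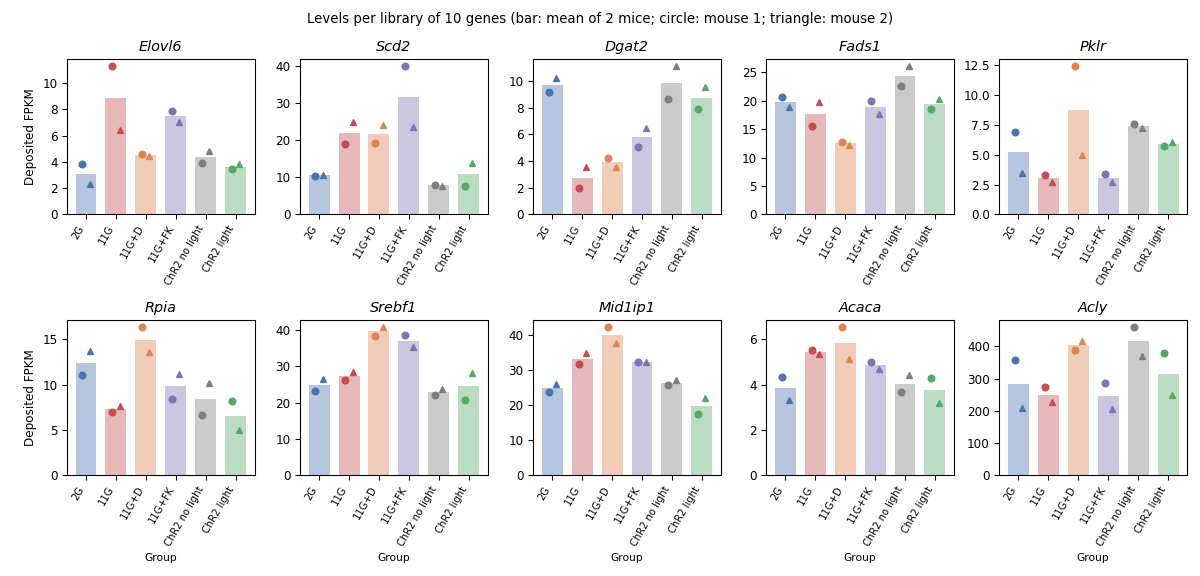
Deposited FPKM per library (linear axes from 0) for 10 genes: the 9 that passed a test and Acly; bars are the mean of 2 mice, circles mouse 1, triangles mouse 2. Elovl6 is high at 11G and with FK506, Dgat2 is low in every 11 mM group, and Scd2 is high in every 11 mM group. Pklr and Rpia are higher with diazoxide than at 11G, while their diazoxide and 2G libraries overlap.

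Across the 6 groups, the 9 genes with a call fell into different patterns of level. Elovl6 was highest at 11G and with FK506 and at 2.29 to 4.83 FPKM in the 2G, diazoxide and ChR2 libraries, its ratio to Elovl5 being 29.7% and 17.2% at 11G, 17.9% and 21.6% with FK506 and 8.45% to 13.3% in the other 8 libraries. Scd2 stood at 18.9 to 39.8 FPKM in the 6 libraries at 11 mM and at 10.3 and 10.7 FPKM at 2G. In the ChR2 libraries, whose glucose is not labelled, Scd2 was at 7.65 to 13.9 FPKM. Dgat2 had the opposite order, 1.96 to 6.51 FPKM at 11 mM against 9.16 and 10.3 FPKM at 2G, with 7.88 to 11.1 FPKM in the ChR2 libraries. Rpia was lowest under light in mouse 2 (4.96 FPKM) and highest with diazoxide in mouse 1 (16.4 FPKM). Within the wild-type groups the summed FPKM of the carboxylases and synthase was 15.5 in both mice at 2G, and 18.5 to 20.8 in the 6 libraries at 11 mM. The 3 regulators summed to 47.0 and 52.8 FPKM at 2G, 58.0 and 63.5 FPKM at 11G, 80.8 and 78.8 FPKM with diazoxide and 71.5 and 67.6 FPKM with FK506. These sums are descriptions, since single members dominate them and no test was made on them.

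Genes around the 31 in the same pathways were counted from separate lists. Of 14 tested genes of a ChREBP and MondoA network (16 listed), 1 rose and 1 fell at 11G against 2G. Of all genes 3.13% rose and 1.71% fell. The gene that fell was Pparg, an adipogenic nuclear receptor (-1.03 ± 0.19, adjusted p 0.0186 in edgeR). With diazoxide against 2G, 3 of the 14 rose and 1 fell, where 2.92% of all genes rose and 2.31% fell. Pparg was again the gene that fell (-1.555 ± 0.198, adjusted p 0.00524 in edgeR), at -1.649 to -1.462 without 1 library. The change of Elovl6 against 2G with diazoxide (0.64 ± 0.23, adjusted p 0.134) did not pass. Diazoxide raised 3 of the 14 against 11G, where 1.33% of all genes rose. They were Txnip, the thioredoxin-binding protein used as a readout of ChREBP and MondoA (1.66 ± 0.35), Mlxipl, which encodes ChREBP itself (0.78 ± 0.18), and Hbp1 (0.64 ± 0.14). Mlxipl went from 39.5 and 38.0 FPKM at 11G to 73.1 and 62.1 FPKM, against 67.9 and 50.9 FPKM at 2G. With FK506 Mlxipl was at 63.35 and 82.47 FPKM, also above both 11G libraries, though without a call. By the drug-to-drug test Txnip was lower with FK506 than with diazoxide (-2.31 ± 0.36, adjusted p 0.0174), as was Pklr above. Txnip against 11G was at 2.16 without 11G mouse 1, 1.26 without 11G mouse 2 and 1.46 without 11G+D mouse 1, none of them past the threshold, and Mlxipl (0.72 to 0.82) and Hbp1 (0.58 to 0.70) held in none of 4 such fits. Between the drugs, Txnip missed the threshold without the 11G+FK library of either mouse (-2.43 and -2.21), and Pparg at 11G without the 11G library of either mouse (-0.87 and -1.20).

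Among 19 tested genes of fatty acid synthesis and activation outside the members (25 listed), Hsd17b12, the ketoacyl reductase that works with the elongases, rose at 11G (0.80 ± 0.14, adjusted p 0.0135 in edgeR) and fell with diazoxide (-0.998 ± 0.14, adjusted p 0.00556), the directions of Elovl6. Fads3 fell at 11G (-1.28 ± 0.31; held in 1 of 4 fits without 1 library, -1.75 without 2G mouse 1, and at -0.67 without 2G mouse 2), and Aacs, which activates acetoacetate for lipid synthesis, rose with diazoxide against 11G (1.52 ± 0.14, adjusted p 0.000879), from 14.6 and 15.4 FPKM to 48.7 and 39.0 FPKM. Aacs was lower with FK506 than with diazoxide (-1.47 ± 0.14), a call lost without the 11G+FK library of either mouse (-1.39 and -1.55). Of 14 tested glycerolipid genes outside the members (22 listed), Cds1, which feeds phospholipid synthesis, rose at 11G (0.78 ± 0.15) and fell with diazoxide (-0.89 ± 0.15), Plin2, a lipid droplet coat protein, fell at 11G (-1.52 ± 0.27), from 35.0 and 67.3 FPKM to 14.1 and 20.1 FPKM, and Lpin1, a phosphatidate phosphatase, rose with diazoxide (0.93 ± 0.18). With Dgat2, Plin2 was thus a second gene of triglyceride storage that fell at 11G. The 14 glycerolipid genes had no common direction at 11G against 2G (median log2 change -0.01, 7 positive and 7 negative). Aacs held in each of 4 fits without 1 library against 11G, and Hsd17b12 was lost without 11G mouse 1 (0.69 against 2G and -0.90 with diazoxide) and, against 2G, 11G mouse 2 (0.91). Plin2 (-1.93 to -1.02) and Cds1 (0.69 to 0.86) held in 1 of 4 fits at 11G, each without 2G mouse 1, Plin2 being at -1.02 without 2G mouse 2, and Cds1 (-0.95 to -0.83) and Lpin1 (0.77 to 1.09) in 1 of 4 with diazoxide, for Cds1 without 11G+D mouse 2 and for Lpin1 without 11G+D mouse 1. With FK506 against 11G and with light, 0 genes of these lists passed in edgeR.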

How the data were processed

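Total RNA of isolated islets was sequenced by a commercial provider, per the labels. The authors deposited 8 tables, each setting a pair of libraries from 1 mouse side by side. Per the file headers, every library has raw counts, FPKM and normalized counts by gene; the last, a scaled signal made by the authors, was not used. Aligner, counter, strand setting and build are, in the sources used here, not given. Of the members, 4 overlap a gene on the other strand that has at least 10% of their counts. They are Pklr with Hcn3, G6pdx with Ikbkg (19712 bases), Srebf1 with Rai1 (109 bases) and Agpat2 with Egfl7 (64 bases). Values of these members may hold reads of the overlapping genes, none of which had a call in any comparison. Counts of libraries that stand in several tables differed at 0 genes between them, and 0 columns were left unmapped.

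The deposited counts were joined and fitted in R 4.3.3 by edgeR 4.0.16 (quasi-likelihood test, TMM normalization, minimum count 10, minimum total count 15, mouse number as a block, two-sided, Benjamini-Hochberg adjustment over all genes, threshold 0.05). The 8 wild-type libraries formed 1 fit (16087 genes, residual df 3) and the 4 ChR2 libraries another (15171 genes, residual df 1), with a biological coefficient of variation of 16.2% in each. A log2 change is printed ± its standard error, which uses a spread estimated across genes and may fall below the spread of a single gene between the mice. Changes per mouse used log2 CPM with a prior count of 1, and levels are the deposited FPKM. Per the labels, a mouse number recurs under each condition, and same-numbered libraries deviated together (correlation across genes 0.15 to 0.46 in wild type, 0.50 in ChR2). Scripts were tested on simulated data.

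Members past the threshold, or with at least 10 FPKM in some library and a log2 change of at least 0.5 the same way in both mice, are described library by library; of each related list up to 4 genes past the threshold are named. Some genes of the related lists are not reported here. The members, lists and rules were chosen with earlier results of these data known. Identifiers of 31 of 31 members were found in GENCODE with the same chromosome and strand, 24 with the same start or end; positions are those of the tables, which name no build. Promoter sequences are from RefSeq (GRCm38.p6) and were matched for 25 members, not for Dgat1, Dgat2, Scd1, Scd2, Gpd1 and Fads1. Alternatives were no mouse block, size factors by RLE, no filter for low counts, DESeq2 1.42.0, 1 fit of the 12 libraries and the omission of each library in turn.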

Additional observations from a re-analysis of the deposited data

How the results depend on the processing

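No direction reversed in the 21 results of members that were run under the alternatives; members named without a call were mostly not among them. Without the replicate block the count of members past the threshold was 1 at 11G against 2G (Dgat2) and 0 in each of the other comparisons. Without a filter on low counts it was 5 at 11G against 2G, 1 at 11G+FK against 11G and 3 at 11G+FK against 11G+D, and DESeq2 gave the same 3 counts. Leaving out 1 library, where the lone sample left in a group is assumed to vary like the others (for light in a fit with the wild-type libraries), gave 0 to 7 members at 11G against 2G, 0 to 3 at 11G+D against 11G, 1 to 7 at 11G+D against 2G, 0 to 1 at 11G+FK against 2G, 0 to 1 at 11G+FK against 11G+D, and 0 to 0 with FK506 against 11G and with light.

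Over all genes, in the order 11G against 2G, 11G+D against 11G, 11G+FK against 11G, 11G+D against 2G, 11G+FK against 2G, 11G+FK against 11G+D and light, the calls were 68, 59, 1, 10, 5, 5 and 0 without the block (654 at an unadjusted p under 0.05 for light), 1672, 1085, 309, 1573, 992, 617 and 419 without a filter, and 42 to 1405, 45 to 765, 0 to 11, 246 to 1140, 4 to 162, 3 to 486 and 0 to 29 without 1 library. DESeq2 gave 1315, 234, 769 and 493 at 11G against 2G, 11G+FK against 11G, 11G+FK against 2G and 11G+FK against 11G+D, and the fit of all 12 libraries 58 with FK506 against 11G and 6 with light. Of these 21 results 15 had a call. Without 1 library 41 of 60 values lost it and 1 of 24 without one gained it; under the other settings 16 of 75 lost it and 7 of 30 gained it. The cause was not tested. With 2 mice a group and 2 to 42 reads, Gckr, Thrsp and Acacb are limited by depth.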

Other observations

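Of 22 fatty acid oxidation genes tested, 0 rose and 2 fell at 11G against 2G (1.71% of all genes fell) by edgeR's quasi-likelihood test: Cpt1a, the gate of mitochondrial import, from 26.4 and 17.0 FPKM in mice 1 and 2 to 7.56 and 9.16 FPKM (log2 -1.32 ± 0.21, adjusted p 0.00896), and Acaa2, a thiolase (-0.82 ± 0.17, adjusted p 0.0302). Both 11G libraries lay below both 2G libraries for Cpt1a, and its call was lost without 11G mouse 1 (-1.17). Acaa2 was lost without 2G mouse 2 (-0.83) and without the 11G library of either mouse (-0.78 and -0.85). With diazoxide, 5 of the 22 fell against 2G and 0 rose, among them Pdk4, which blocks pyruvate oxidation (-1.37 ± 0.30), Slc25a20, the acylcarnitine carrier (-0.98 ± 0.17), Acaa2 (-0.99 ± 0.17) and Acadl (-0.79 ± 0.15), where 2.31% of all genes fell; without 1 library these 4 held in 1, 3, 2 and 2 of 4 fits. With FK506 1 fell against 2G, Cpt1a (-1.01 ± 0.20; held in 1 of 4 fits without 1 library, and at -0.64 without 2G mouse 1). Fatty acid oxidation genes had a median log2 change of -0.37 at 11G against -0.01 over all genes.

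Among 17 tested genes of other NADPH and anaplerotic routes, the isocitrate dehydrogenases moved in opposite directions at 11G against 2G. Idh1, the cytosolic form, rose by 0.72 ± 0.18 (adjusted p 0.0455 in edgeR) and Idh2, the mitochondrial form, fell by 0.73 on the log2 scale (± 0.16, adjusted p 0.0352), as did H6pd, the pentose phosphate enzyme of the endoplasmic reticulum (-0.86 ± 0.21). Idh1 also rose against 2G with diazoxide (1.23 ± 0.18, adjusted p 0.00823), held in 4 of 4 fits without 1 library, and with FK506 (1.14 ± 0.18, adjusted p 0.0198), held in 1 of 4. At 11G, Idh1 held in none of 4 fits that leave out 1 library (0.59 to 0.85) and Idh2 (-0.96 to -0.50) and H6pd (-1.13 to -0.55) in 1 of 4.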
